A study of Mus musculus with 33 samples.

Results

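The C-type lectin receptors described here are 9 myeloid genes, taken from a fixed list of names: Clec7a, Clec12a, Clec5a, Clec4a1, Clec4a2, Clec4a3, Clec4d, Clec4e and Clec4n. They were followed in 33 RNA-seq libraries of microglia from female C57BL/6 mice, among the 54146 genes listed in the count files. The rule that chose them named the rise of Clec7a in 5xFAD, IRF8KO and Batf3KO, so Clec7a is given there, and in differences between those effects, as a description without a test, and the other 8 genes are counted. The 10 groups come from 4 experiments. The first compared WT and IRF8KO mice at 3 months (4 libraries each), where IRF8KO is a germline loss of the transcription factor IRF8. The second, at 9 months, held WT, IRF8KO, 5xFAD (genotype 5xFAD/WT) and 5xFAD/IRF8KO mice (3 libraries each); 5xFAD mice carry mutant human amyloid precursor protein and presenilin transgenes expressed in neurons, a model of amyloid plaque deposition. The third compared WT with Batf3-/- mice at 3 months (Batf3KO, 3 each), which lack a partner transcription factor of IRF8. The last compared conditional animals at 3 months, all given tamoxifen on 5 days from postnatal day 12. Its controls carry floxed Irf8 without Cre (flox, 3 libraries), and its knockouts carry floxed Irf8 with Cx3cr1CreERT2 (Cre, 4 libraries), a Cre active in cells that express Cx3cr1. The series design states that YFP-positive cells of the conditional line, which carries a Rosa26LSL-EYFP reporter, were sorted. Whether flox cells, with no Cre, passed the same gate was not given in the sources used here.

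C-type lectin receptors bind sugars, lipids or damage-associated ligands at the surface of myeloid cells. Activating members signal through Syk, either by a motif in their own tail (Clec7a, dectin-1) or through the adaptors Fcer1g (Clec4d, Clec4e and Clec4n) and Tyrobp (Clec5a), and Syk signals onward through Card9, Bcl10 and Malt1. Inhibitory members such as Clec12a and Clec4a2 carry a tail motif that recruits phosphatases. In brain, Clec7a is best known as a marker of microglia around amyloid plaques, while Clec4d and Clec4e are known from neutrophils and monocytes.

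All 9 genes lie on mouse chromosome 6 (GRCm38), with Clec5a at 40574894 to 40585821, the 6 Clec4 genes between 122921848 and 123289870, and Clec12a and Clec7a between 129342691 and 129472779. The annotation lists Clec7a as a polymorphic pseudogene and the other 8 as protein coding, and 8 of the 9 had a promoter in the RefSeq table (GRCm38.p6; 250 bases before to 50 after the start, 10 records). 4 of these promoters are shown because their genes take the different courses described next: Clec7a, high in every germline IRF8KO group and in 5xFAD; Clec12a and Clec4d, near 0 in WT at 9 months and high in IRF8KO; and Clec4a3, whose lowest group medians were those of the 3 IRF8KO groups. They lie at chr6:129472730-129473029 (minus strand), chr6:129349994-129350293 (plus strand), chr6:123261857-123262156 (plus strand) and chr6:122952265-122952564 (plus strand), each printed 5′ to 3′ on the strand of the gene. Capitals mark matches, on either strand, to GGAA, any pair of bases and GAAA (an ETS-IRF composite element, the type of site that IRF8 binds with PU.1), GAAA, any pair of bases and GAAA (the core of an interferon-stimulated response element), TGANTCA (an AP-1 site, the family of Batf3) or GAGGAA (a PU.1 core). The PU.1 core overlaps the interferon-type match in Clec4d.
Clec7a: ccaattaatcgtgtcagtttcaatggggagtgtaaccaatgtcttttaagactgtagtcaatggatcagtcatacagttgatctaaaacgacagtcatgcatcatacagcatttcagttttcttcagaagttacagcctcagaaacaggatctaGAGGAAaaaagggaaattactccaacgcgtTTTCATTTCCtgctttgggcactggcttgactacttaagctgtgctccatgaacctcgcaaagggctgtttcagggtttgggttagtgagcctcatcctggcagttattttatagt
Clec12a: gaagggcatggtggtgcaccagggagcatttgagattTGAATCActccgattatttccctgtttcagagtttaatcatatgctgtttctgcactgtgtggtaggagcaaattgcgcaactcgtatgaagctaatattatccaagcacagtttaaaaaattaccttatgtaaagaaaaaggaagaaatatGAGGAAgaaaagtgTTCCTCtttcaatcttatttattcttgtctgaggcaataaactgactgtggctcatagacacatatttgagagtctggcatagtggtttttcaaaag
Clec4d: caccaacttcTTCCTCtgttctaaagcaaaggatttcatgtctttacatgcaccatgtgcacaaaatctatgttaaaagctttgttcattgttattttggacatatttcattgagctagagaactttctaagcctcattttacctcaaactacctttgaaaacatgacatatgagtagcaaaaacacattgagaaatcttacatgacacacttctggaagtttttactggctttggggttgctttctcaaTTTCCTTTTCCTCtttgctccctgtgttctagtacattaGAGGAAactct
Clec4a3: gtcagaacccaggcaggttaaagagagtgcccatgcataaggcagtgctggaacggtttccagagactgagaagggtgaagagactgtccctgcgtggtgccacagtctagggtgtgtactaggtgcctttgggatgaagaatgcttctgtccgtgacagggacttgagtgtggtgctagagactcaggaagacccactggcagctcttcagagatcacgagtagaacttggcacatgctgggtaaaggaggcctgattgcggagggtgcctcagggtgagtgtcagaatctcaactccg

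The ETS-IRF composite letters were found in Clec7a, at bases 185 to 194 of the window (TTTCATTTCC, on the other strand), and in Clec4a1 at bases 42 to 51 (TTTCCTTTCC). They occurred in 2.72% of 32851 promoters of this length. Clec4d held the interferon-type letters at bases 251 to 260 (TTTCCTTTTC), which occurred in 3.44%. The AP-1 letters were in Clec12a and Clec4a2 and in 7.81% of all promoters, and GAGGAA, in 7 of the 8 genes, was in 28.3%. The Clec4a3 window shown held none of the 4, and its second record held 1 GAGGAA. A match is a stretch of letters and not a bound site. For Clec12a and Clec4a2 the RefSeq start lies inside the GENCODE gene.

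Counts in genes ranged from 605376 (WT at 9 months, replicate 3) to 18357762 (Batf3KO replicate 3). Levels are CPM, counts scaled to library size with TMM factors within each experiment, and called means an adjusted p under 0.05 in edgeR's quasi-likelihood test over all genes tested. At 3 months Irf8 ranged over 213 to 305 CPM in the WT libraries against 90.3 to 152.5 in IRF8KO, and at 9 months over 586 to 680.5 against 16.7 to 141. Batf3 was at 23.5 to 26.9 CPM in WT and 0.44 to 0.52 in Batf3KO. In the conditional experiment Irf8 was at 972 to 1244 in flox and at 1134, 444, 367 and 521 in Cre, so the library labelled Cre replicate 1 lies within the flox range and results there are given with and without it. The libraries also differed in transcripts of other cells. A list of 15 neutrophil markers took 0.867% to 5.4% of gene counts in the WT libraries at 3 months, 7.75% to 16.7% in IRF8KO of that age, 6.53% to 9.13% in IRF8KO and 8.29% to 14.9% in 5xFAD/IRF8KO at 9 months, and at most 0.0112% in every other group. At 9 months 9 of the 15 neutrophil markers were at 0 in all WT libraries, among them Ltf, Camp and Ngp. For 10 microglial markers the summed share at 9 months was 5.58% to 6.36% (WT) against 0.325% to 0.78% (IRF8KO); at 3 months the values were 0.995% to 2.45% and 0.554% to 0.897%. Monocyte markers at 3 months took 0.0509% to 0.16% (IRF8KO) and 0.0199% to 0.0506% (WT). At 9 months they took 0.0491% to 0.094% (IRF8KO), 0.127% to 0.158% (5xFAD/IRF8KO), 0.00033% to 0.000837% (WT) and 0.00057% to 0.00083% (5xFAD). Red cell markers at 9 months took 2.38% to 15.8% (IRF8KO) and at most 0.00529% (WT), and at 3 months 0.902% to 9.03% and 3.05% to 10.3%. Oligodendrocyte markers at 9 months took 0.707% to 1.09% (IRF8KO) and 0.0134% to 0.0167% (WT). At that age 46.6% to 51.4% of reads fell outside genes in IRF8KO and 22.7% to 25.3% in WT. Correlations between replicates were 0.671 to 0.731 and 0.964 to 0.981. In bulk libraries, a change in the number of cells of a type and a change in RNA per cell cannot be told apart, and the part of these other cells in the results was not tested.

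**Figure D1:**
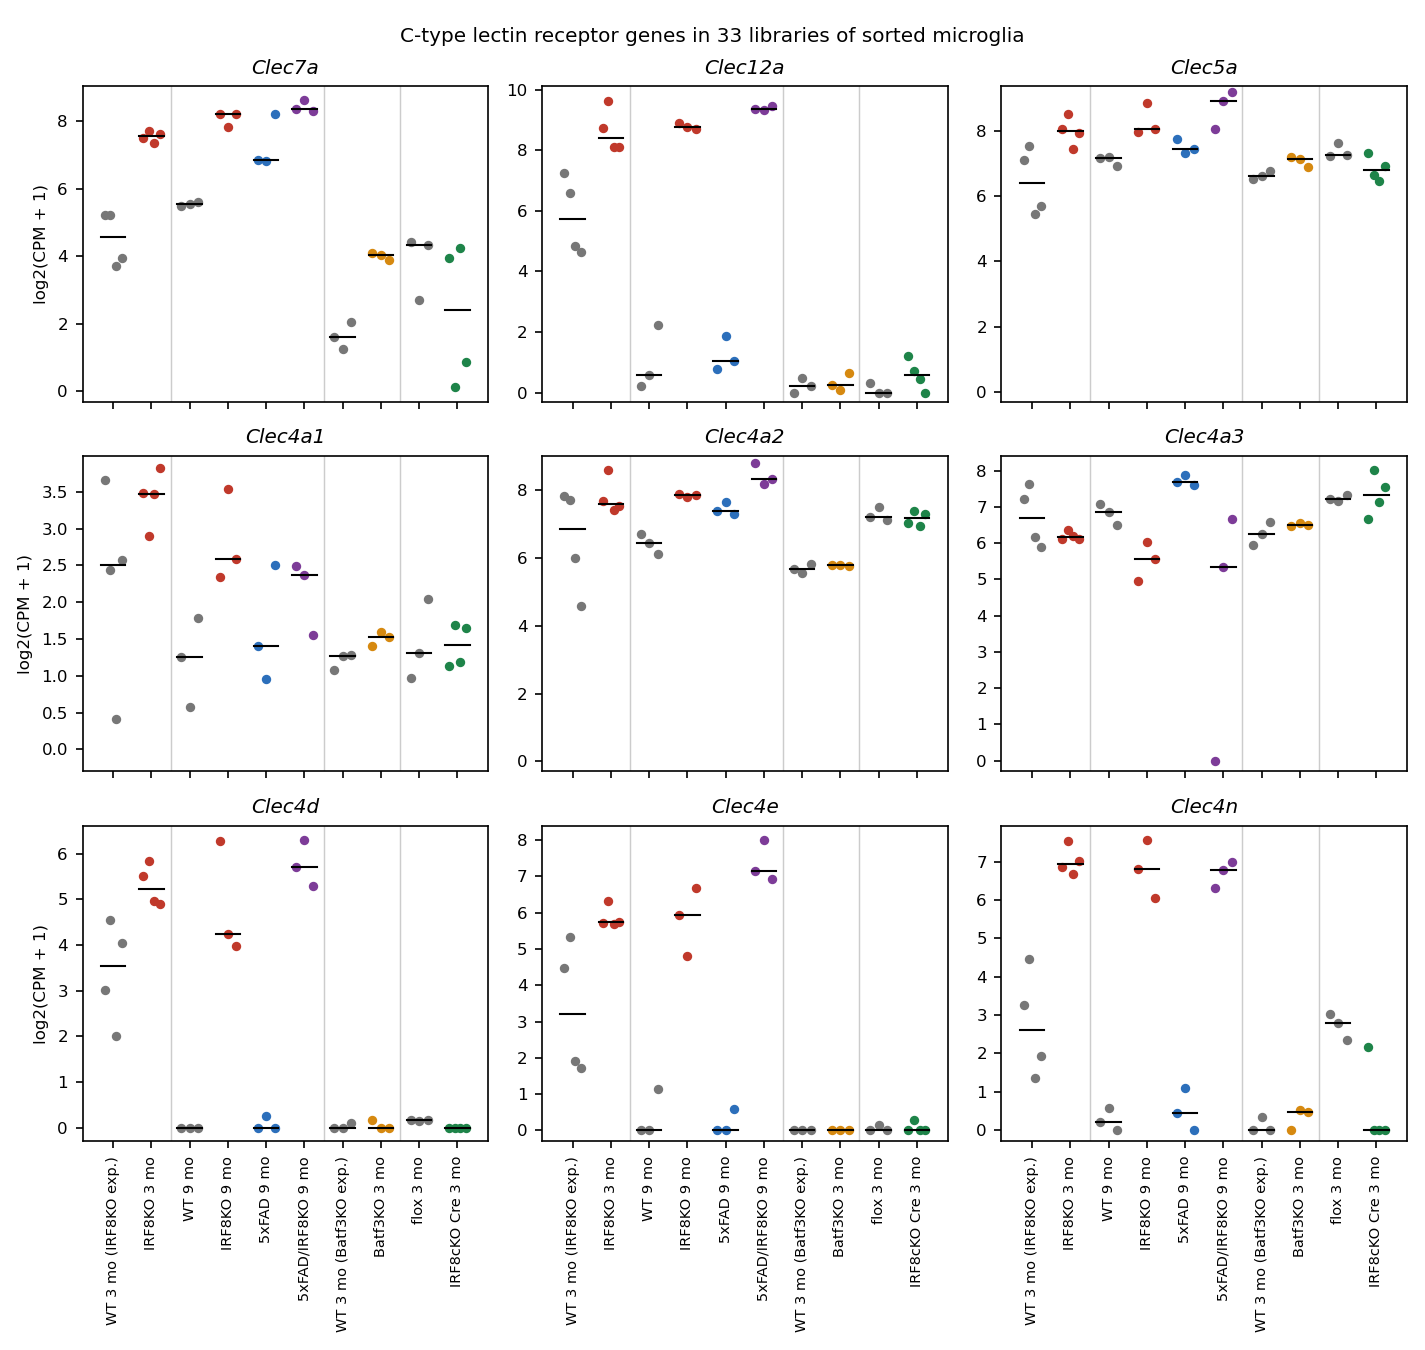
Level of each gene in each of 33 libraries, as log2(CPM + 1) on the y axis, by group on the x axis; points are libraries, black lines are group medians, and grey vertical lines separate the 4 experiments. Clec7a was highest in 5xFAD/IRF8KO at 317.4 to 392.1 CPM, Clec4d and Clec4e were near 0 outside the IRF8KO groups and their 3-month WT, and the lowest medians of Clec4a3 were those of the 3 IRF8KO groups.

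Per kilobase of exon, which allows genes to be compared, Clec4a3 had the highest median of the 9 in WT of all 3 experiments that have one, in 5xFAD, in Batf3KO, in flox and in Cre, at 56.1 to 155 CPM per kb. In these 7 groups it made up 43% to 59.7% of the sum of the 9 medians. Clec4a2 and Clec5a took the next places. In the IRF8KO groups the order was different: Clec4n led at 3 months with 86.3 CPM per kb, Clec7a led at 9 months with 112, and Clec5a led in 5xFAD/IRF8KO with 126. There Clec4a3 held 11.9%, 7.23% and 4.57% of the sum. Clec4a1, also called DCIR4, stayed at or under 6.49 CPM per kb in every group.

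**Figure D2:**
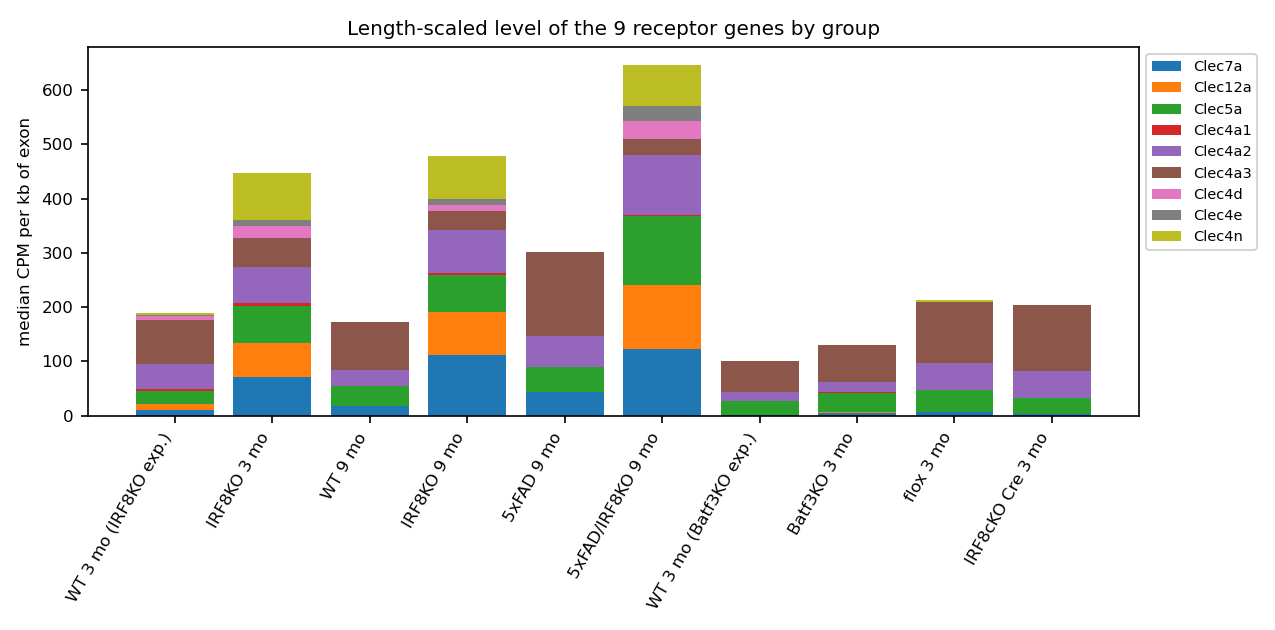
Median level of the 9 genes, in CPM per kb of exon on the y axis, stacked by group on the x axis; each colour is 1 gene. The stack reached 172 in WT and 478 in IRF8KO at 9 months, and Clec4a3 was the largest block in the 7 groups other than the 3 IRF8KO groups.

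Clec7a, the beta-glucan receptor dectin-1, was followed first. At 3 months it stood at 36.4, 36.3, 12.3 and 14.4 CPM in the 4 WT libraries and at 181, 208, 164 and 195 in IRF8KO. At 9 months it was at 44.2, 46.1 and 47.4 in WT, at 297, 225 and 296 in IRF8KO, at 115, 113 and 295 in 5xFAD and at 326, 392.1 and 317 in 5xFAD/IRF8KO. No library of these mutant groups fell into the range of its WT group. Of all genes tested, 10.9% were higher without overlap in IRF8KO at 3 months, 27.4% in IRF8KO at 9 months and 22.95% in 5xFAD. No such share was computed for 5xFAD/IRF8KO against WT. As a description, the log2 fold changes against WT were 2.93 (SE 0.41) for IRF8KO at 3 months, 2.57 (SE 0.36) at 9 months and 1.92 (SE 0.36) for 5xFAD. The 5xFAD value leaned on replicate 3, at 295 CPM, and was 1.27 without it. The IRF8KO effect at 9 months minus that at 3 months was -0.28 (SE 0.52), also a description.

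As a description, the interaction of 5xFAD and IRF8KO for Clec7a was -1.58 (SE 0.49), and -0.93 without 5xFAD replicate 3. Within 5xFAD, whose libraries the choice of Clec7a had used, loss of IRF8 added 0.99 (SE 0.34, adjusted p = 0.0474 in edgeR's test) to Clec7a. That call was lost when any of 11 of the 12 libraries was left out (log2 values 0.75 to 1.05), with DESeq2 (adjusted p = 0.057) and with RLE factors (0.0768). Within IRF8KO, 5xFAD made a difference of 0.34 (SE 0.34, adjusted p = 0.762), which was not called.

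In the Batf3KO experiment Clec7a was at 2.05, 1.40 and 3.18 CPM in WT and 16.1, 15.4 and 13.9 in Batf3KO. The groups did not overlap, and the log2 difference, as a description, was 2.79 (SE 0.27). Of 13128 genes, 11.8% were higher in Batf3KO without overlap. The 15 neutrophil markers held at most 0.000516% of counts in these 6 libraries, and Ly6c2, which marks classical monocytes, was at most at 0.26 CPM. The WT levels of the IRF8KO and Batf3KO experiments differed by 3.70 (SE 0.66, adjusted p = 0.00194 in edgeR's test), higher in the IRF8KO experiment. Across all groups the median of Clec7a went from 5xFAD/IRF8KO (median 326 CPM) through IRF8KO at 9 months (296), IRF8KO at 3 months (188), 5xFAD (115), WT at 9 months (46.1), WT of the IRF8KO experiment (25.4), flox (19.3), Batf3KO (15.4) and Cre (7.67) to WT of the Batf3KO experiment (2.05). Only 4 of the 9 neighbouring pairs had ranges that did not overlap: the first with the second, the second with the third, 5xFAD with WT at 9 months, and WT at 9 months with WT of the IRF8KO experiment.

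Over the 10 group means of log2(CPM + 1), the genes most like Clec7a among 14054 were Snap23 (r = 0.952), Lypla1 (0.9503), Nab1 (0.947), Tpd52 (0.946) and Ube2d3 (0.943). Among those most like Clec12a were Fpr1 (0.997), Mirt2, Rgs18 and Cd177 (0.996), and those most like Clec4d were Mapk13 (0.999), Slfn1, Mmp9, Crispld2 and Cd177. Fpr1, Cd177 and Mmp9 are known from neutrophils. Other members had other lists. Clec4n was most like Apoc1 (0.996), Plk1, Cdca8, Ncapg and Trem1, and Clec5a was most like Rab32 (0.977), Rassf3, Cdc45, Plk4 and Spdl1. These correlations describe 10 groups that share experiments and cell make-up. Among the members themselves, Clec12a, Clec4d and Clec4e had correlations of 0.991 to 0.994 with each other, whereas Clec7a had 0.722 to 0.763 with these 3 and Clec4a3 had negative ones with all 8 others (-0.42 to -0.80).

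The Fcer1g-coupled receptors Clec4n (dectin-2), Clec4d (MCL) and Clec4e (Mincle) were low or absent in most groups and high in germline IRF8KO. At 3 months Clec4n stood at 8.60, 20.8, 1.55 and 2.81 CPM in WT libraries, and IRF8KO libraries held 115, 185, 102 and 129, with no overlap. It rose by a log2 fold change of 3.98 (SE 0.70, adjusted p = 0.00702 in edgeR's test), and this call held when each library was left out (adjusted p at most 0.0219). Together with Clec12a it made up the 2 called, both higher, among the 8 genes other than Clec7a at 3 months. Among all 13121 genes, 4.15% were called higher and 7.39% in either direction, and 10.9% were higher without overlap. The median log2 change of these 8 was 1.53, against -0.02 over all genes.

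Clec4d values at 3 months were 7.08, 22.4, 2.99 and 15.5 CPM (WT) and 44.4, 56.1, 30.2 and 28.8 (IRF8KO), a log2 difference of 1.72 (SE 0.57, adjusted p = 0.0867). Clec4e was at 21.3, 38.9, 2.77 and 2.27 in WT and 51.7, 79.3, 50.3 and 52.9 in IRF8KO, a difference of 1.85 (SE 0.75, adjusted p = 0.155). Neither was called, although the libraries of these genotypes did not overlap, as for 10.9% of 13121 genes on the higher side. Clec4d passed in DESeq2 (1.67, adjusted p = 0.0366) and with no filter on low counts (1.64, 0.0389), and Clec4e passed with no filter (1.75, 0.00851). Without WT replicate 2, the WT library with the highest Clec4d and Clec4e, both passed (2.22 with adjusted p = 0.04996 and 2.87 with adjusted p = 0.0471), and 5 of the 8 genes were called.

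At 9 months WT libraries held almost none of these transcripts. Clec4n had 2 counts over all 3 WT libraries and stood at 111, 188 and 64.7 CPM in IRF8KO, a ratio of 551 (exact 95% counting interval 152 to 4552). Clec4d had 0 counts in WT, and IRF8KO libraries held 76.8, 17.9 and 14.9 CPM, at least 117-fold higher when WT is set to 3 counts over the group. Clec4e had 1 count in WT and stood at 60.4, 27.0 and 102 CPM in IRF8KO, a ratio of 612 (interval 110 to 24190). All 3 were called (edgeR adjusted p = 2.14e-05, 0.000761 and 0.000235), and 6 of the 8 genes other than Clec7a were called, all higher. Of 14604 genes, 19.6% were called higher and 28.3% in either direction. Clec12a, Clec4d, Clec4e and Clec4n, at 5, 0, 1 and 2 counts in WT, passed the filter on low counts through the libraries of both IRF8KO groups. They could be called only higher, so the direction of their calls is not a result. The median log2 change of the 8, which includes these genes, was 5.54, against 0.25 over all genes. With Clec4d at its bound and Clec4e and Clec4n at their ratios it was 4.56.

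The IRF8KO effect was larger at 9 than at 3 months for Clec4n (adjusted p = 0.01), Clec4d (0.00221), Clec4e (0.00692) and Clec12a (6.85, SE 1.16, adjusted p = 0.000436) in the edgeR test of the difference itself. These were the 4 called of the 8 genes other than Clec7a, with 24% of 15512 genes called in either direction and 18% toward the larger value at 9 months. The ages come from separate experiments, so age and experiment cannot be told apart in this difference. The IRF8KO means at both ages were close for Clec12a (441 CPM at each age) and Clec4d (39.9 and 36.5), while the WT means were 74.5 and 1.43 for Clec12a and 12 and 0 for Clec4d. The neutrophil marker share was 0.867% to 5.4% in WT at 3 months and at most 0.000496% in WT at 9 months. Without WT at 9 months replicate 1, the calls of Clec4e (adjusted p = 0.0505) and Clec4n (0.0703) were lost. Between experiments, the 3-month WT groups differed with 5 of 9 genes called (Clec7a, Clec12a, Clec4d, Clec4e and Clec4n), all higher in the IRF8KO experiment, among 42.8% of 14621 genes called and 26.5% called higher. In WT of the Batf3KO experiment Clec12a, Clec4d, Clec4e and Clec4n had 8, 1, 0 and 4 counts. They passed the filter on low counts through WT of the IRF8KO experiment, so they could be called only higher in it. Clec4e was at 0 counts in WT of the Batf3KO experiment (at least 205-fold), Clec4d at 1 count (ratio 498, interval 88.9 to 19720), Clec12a differed by 8.83 (SE 1.11) and Clec4n by 6.64 (SE 1.59).

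**Figure D3:**
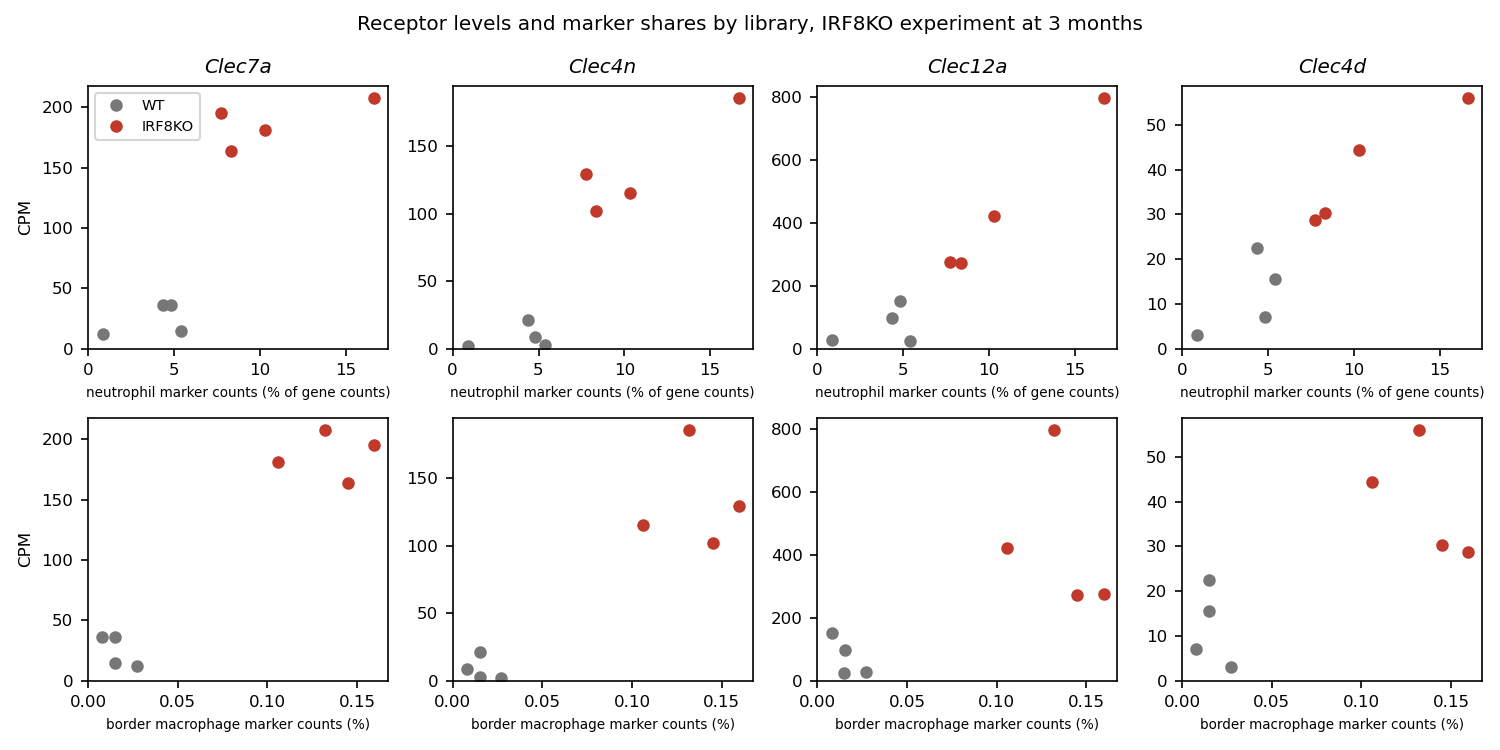
IRF8KO experiment at 3 months. Each point is a library (grey WT, red IRF8KO); the y axis is the level of the gene named above the column in CPM, and the x axis is the share of gene counts in 15 neutrophil markers (top) or 10 border macrophage markers (bottom). WT replicate 4 had 5.4% neutrophil marker counts and 2.81 CPM of Clec4n, and IRF8KO replicate 4 had 7.75% and 129 CPM.

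The plot of receptor levels against marker shares shows how these measures moved together at 3 months. IRF8KO replicate 2 had the highest neutrophil share (16.7%) and also the highest Clec4n, Clec12a, Clec4d and Clec4e. WT replicate 4 had the highest neutrophil share of the WT libraries (5.4%), which was below that of every IRF8KO library (7.75% to 16.7%). S100a8, a neutrophil transcript picked after its values were seen, took a different order. It was at 26380 CPM in WT replicate 4, above 3 of the 4 IRF8KO libraries (16730 to 47530). In that library Clec12a (23.9 CPM) and Clec4e (2.27) were the lowest of the 4 WT values, Clec4n (2.81) and Clec7a (14.4) the second lowest, and Clec4d (15.5) the second highest. Border macrophage markers took 0.00807% to 0.0272% of counts in WT and 0.106% to 0.16% in IRF8KO, and Mrc1, a mannose receptor of border macrophages, went from 6.07 to 17.7 CPM in WT to 171 to 229. The part of either cell type in the receptor levels was not tested.

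Among the inhibitory members, Clec12a showed the widest range. At 3 months it was at 151, 96.0, 27.5 and 23.9 CPM in WT and 421, 795, 271 and 275 in IRF8KO, and rose by 2.57 (SE 0.61, adjusted p = 0.026 in edgeR's test). The call was lost without IRF8KO replicate 1 (2.61, adjusted p = 0.0684) or replicate 2 (2.08, 0.0754). At 9 months it was at 0.15, 0.49 and 3.65 CPM in WT (5 counts in all) and at 472, 434 and 418 in IRF8KO, and rose by 9.38 (SE 0.75, adjusted p = 5.98e-06). In 5xFAD it stayed at 0.73, 2.64 and 1.04 CPM, and in 5xFAD/IRF8KO it was at 652, 645 and 696. In the Batf3KO and conditional experiments it did not exceed 1.32 CPM.

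Clec4a2, known as DCIR, was present in every group. At 3 months it overlapped between WT (224, 208, 63.5 and 22.7 CPM) and IRF8KO (203, 388, 169 and 183), with a log2 difference of 0.87 (SE 0.59, adjusted p = 0.412). At 9 months it was at 105, 86.4 and 68.1 in WT and 235, 222 and 232 in IRF8KO, and rose by 1.40 (SE 0.25, adjusted p = 0.00132 in edgeR's test). Reads of Clec4a2 may be shared with its relatives, since 6.13% of its 55-base words also occur in other genes, chiefly Clec4a4 and Clec4b1. In 5xFAD it was at 167, 201 and 157 CPM, above all 3 WT libraries, as 22.95% of all genes tested were. Clec5a and Clec4a3 were also above all WT libraries there, so this held for 3 of the 8 genes other than Clec7a. The Clec4a2 difference of 1.013 (SE 0.24) missed the threshold in edgeR's test (adjusted p = 0.058) and passed it in DESeq2 (0.93, adjusted p = 0.00247). It was the 1 of the 8 genes other than Clec7a with an unadjusted p under 0.05 in 5xFAD, where edgeR called 0 of 8 and 1.99% of 14604 genes were called, and DESeq2 called 1. Of these 8, Clec12a, Clec4d, Clec4e and Clec4n had 24, 1, 1 and 10 counts over the 5xFAD libraries and 5, 0, 1 and 2 over WT. They passed the filter on low counts through the libraries of both IRF8KO groups in the shared 9-month model, so the test in 5xFAD bears mainly on the other 4.

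Clec4a3, known as DCIR3, went the other way in its values. At 9 months it was at 133, 116 and 88.8 CPM in WT, 30.2, 64.4 and 45.9 in IRF8KO, 206, 235 and 195 in 5xFAD, and 0, 39.2 and 101 in 5xFAD/IRF8KO. The 5xFAD/IRF8KO replicate 1 library had 0 counts of Clec4a3 in 13077749 gene counts, which allows up to 0.257 CPM, whereas its Clec5a (268 CPM) and Clec4a2 (445) were well covered. With that library in the model the differences were -1.27 (SE 1.13, adjusted p = 0.443) for IRF8KO against WT and -2.18 (SE 1.16, adjusted p = 0.183) for 5xFAD/IRF8KO against 5xFAD. Without it both passed edgeR's test, at -1.28 (adjusted p = 0.0299) and -1.61 (adjusted p = 0.0247). The comparison with 5xFAD also passed in 1 model of all 33 libraries (-2.09, adjusted p = 0.032), and the comparison with WT did not. At 3 months the groups overlapped: WT libraries held 147, 198, 70.3 and 57.9 CPM of Clec4a3 and IRF8KO libraries 68.6, 80.4, 72.3 and 68.0 (-0.71, SE 0.39, adjusted p = 0.304). Cd302, a C-type lectin outside the 9, fell in IRF8KO at both ages, from 138 ± 69.5 (SD, n = 4) to 22.5 ± 7.39 CPM at 3 months (-2.62, SE 0.41, adjusted p = 0.00415) and from 120 ± 30.2 (n = 3) to 28.7 ± 18.4 at 9 months (-2.07, SE 0.58, adjusted p = 0.0201).

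Clec5a (MDL-1), which signals through Tyrobp, had 3-month values of 138, 184, 43.3 and 51.4 CPM (WT) and 269, 369, 175.5 and 246 (IRF8KO), with overlap and no call (1.35, SE 0.47, adjusted p = 0.0964). Without WT replicate 2 it passed (1.79, adjusted p = 0.0482), as it did in DESeq2 (1.28, 0.0493) and in 1 model of all 33 libraries (1.43, 0.00303). At 9 months it was at 142, 147 and 120 in WT and 251, 469 and 264 in IRF8KO, and rose by 1.26 (SE 0.33, adjusted p = 0.0129). This call was lost without IRF8KO replicate 2 (0.80, adjusted p = 0.0782), WT replicate 1 (1.17, 0.0711) or WT replicate 3 (1.08, 0.0759). In 5xFAD it was at 217, 161 and 174, a difference of 0.43 (SE 0.32, adjusted p = 0.809). Clec4a1, at 0.33 to 13.1 CPM over all libraries, was not called in any comparison, although 1 model of all 33 libraries called it in IRF8KO at 9 months (2.45, adjusted p = 0.0385).

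**Figure D4:**
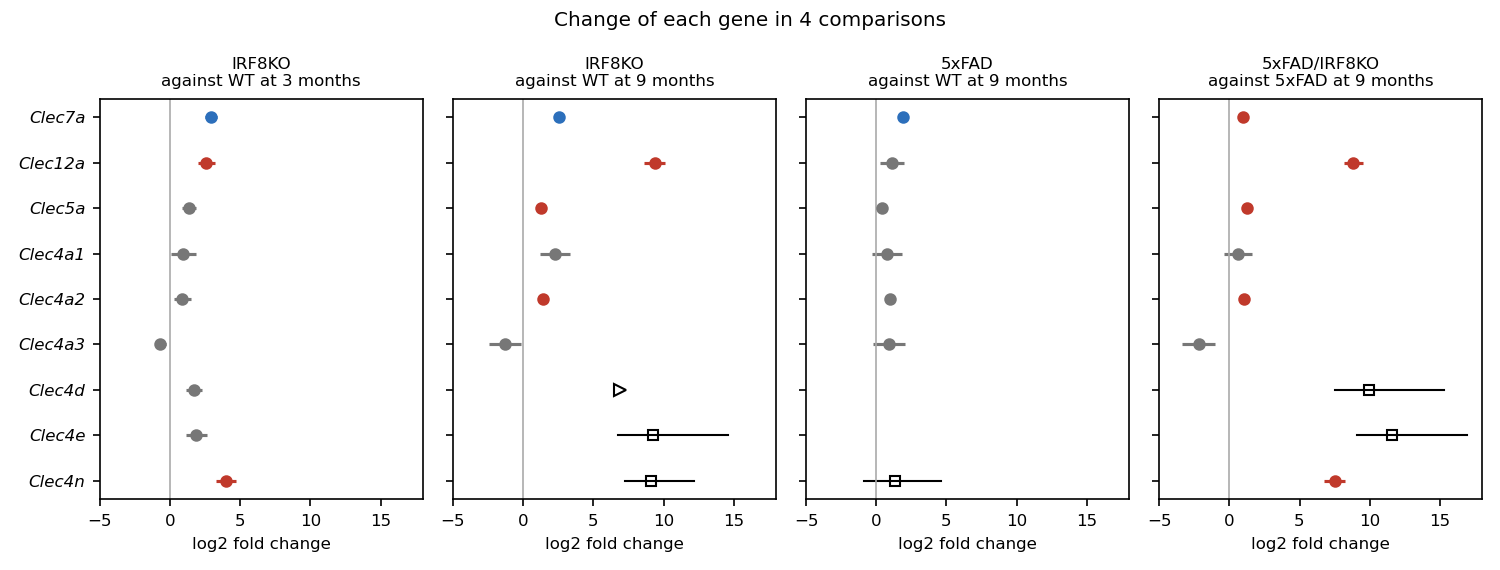
Log2 fold change of each gene (y axis) in 4 comparisons (panels), on the x axis. Filled circles are edgeR estimates with bars of 1 SE (red called, grey not called, blue Clec7a where the choice of genes named its rise); open squares are ratios against a group of 1 to 3 counts with exact 95% counting intervals, the triangle is a lower bound against a group at 0, and a gene with both groups at or under 3 counts has no symbol. Clec12a sits at 9.38 for IRF8KO and at 1.14 for 5xFAD against the same WT at 9 months.

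In 5xFAD mice the loss of IRF8 was followed by 7 of 9 genes called higher against 5xFAD, where 18% of 14604 genes were called higher and 27.8% in either direction. Clec7a was 1 of the 7, although its choice had used the 5xFAD libraries. Its call was lost when any of 11 of the 12 libraries was left out. Clec12a, Clec4d, Clec4e and Clec4n had 24, 1, 1 and 10 counts over the 5xFAD libraries. They passed the filter on low counts through the IRF8KO groups, so they could be called only higher. Clec12a rose by 8.82 (SE 0.67, adjusted p = 3.92e-06 in edgeR's test) and Clec4n by 7.49 (SE 0.75, adjusted p = 2.34e-05). Clec4n stood at 0.36, 1.13 and 0 CPM in 5xFAD and 79.1, 109 and 127 in 5xFAD/IRF8KO. Clec4d went from 1 count to 51.1, 77.6 and 38.3 CPM, a ratio of 1012 (interval 182 to 40010), and Clec4e from 1 count to 140, 253 and 120 CPM, a ratio of 3105 (interval 557 to 122700). Clec5a, at 268, 484 and 587 CPM, rose by 1.28 (SE 0.33, adjusted p = 0.0121), a call lost without 5xFAD replicate 2 or 3 (adjusted p = 0.0686 and 0.0639). Clec4a2, at 445, 290 and 324 CPM, rose by 1.0097 (SE 0.24, adjusted p = 0.00894), a call lost without 5xFAD replicate 3 (0.86, adjusted p = 0.0649). The neutrophil share went from at most 0.000207% to 8.29% or more between these groups, and its part was not tested. This comparison and that of IRF8KO with WT share no library, but both were fitted in 1 model.

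On top of IRF8 loss, 5xFAD gave no call among the 9 genes. Against IRF8KO, edgeR called 0 of 9, with 0.164% of all genes called, 1 gene had an unadjusted p under 0.05 (Clec4a2, 0.62, SE 0.24, adjusted p = 0.289), and DESeq2 called 0. Libraries of 4 genes did not overlap between 5xFAD/IRF8KO and IRF8KO, all higher in 5xFAD/IRF8KO, where 5.45% of all 14604 genes were higher and 5.55% lower without overlap. They were Clec7a, Clec12a (0.59, SE 0.45), Clec4a2 and Clec4e (1.44, SE 0.69, adjusted p = 0.414). The interaction of 5xFAD and IRF8KO was called for 0 of the 8 genes other than Clec7a in edgeR and in DESeq2, with 0 at an unadjusted p under 0.05 in edgeR and 0.438% of all genes called.

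In Batf3KO, 4 of the 8 genes other than Clec7a passed the filter on low counts, and 1 was called, where 3.83% of 13128 genes were called and 1.41% were called higher. Of these 13128 genes, 11.8% were higher in Batf3KO without overlap. Clec5a was at 91.4, 97.8 and 109 CPM in WT and 147, 141 and 117 in Batf3KO, without overlap, and rose by 0.44 (SE 0.11, adjusted p = 0.0349 in edgeR's test). The call was lost in 1 model of all 33 libraries and when any of 4 of the 6 libraries was left out (Batf3KO replicate 1 or 2, WT replicate 1 or 2; adjusted p 0.118 to 0.171). Clec4a2 differed by 0.09 (SE 0.10), Clec4a3 by 0.24 (SE 0.13) and Clec4a1 by 0.48 (SE 0.40), with no call. The 4 genes left out were near absent: Clec4e had 0 counts in all 6 libraries, Clec4d 3 counts in all, and Clec12a and Clec4n were at most at 0.56 CPM.

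**Figure D5:**
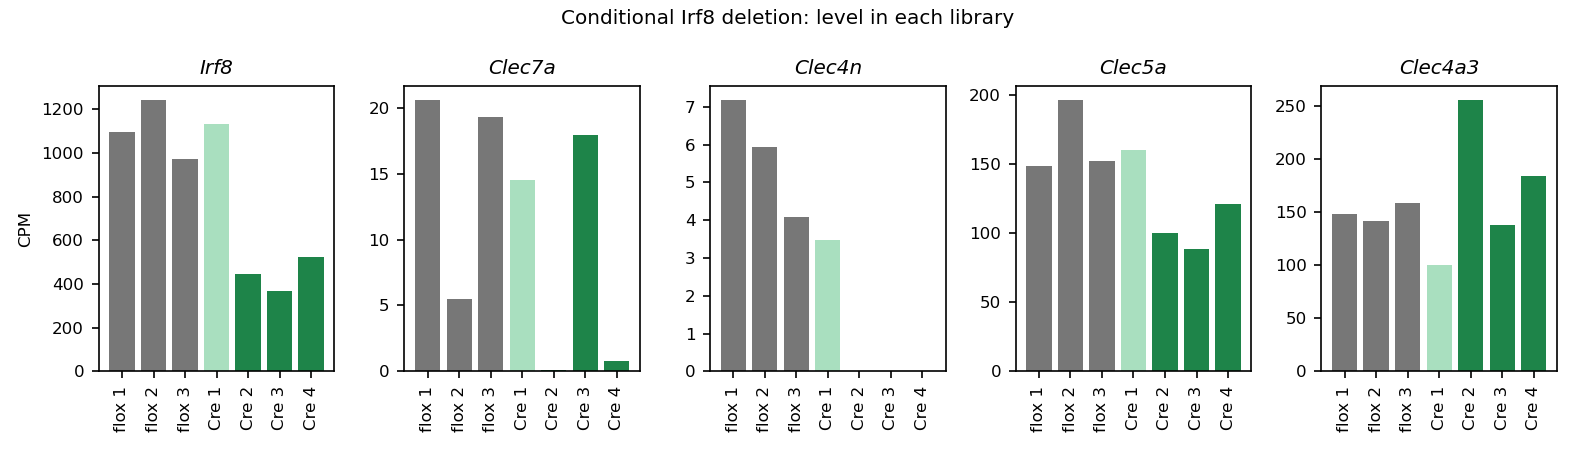
Level in CPM (y axis) of Irf8 and 4 receptor genes in each library of the conditional experiment (x axis); grey bars are flox, the pale green bar is the library labelled Cre replicate 1, and dark green bars are Cre replicates 2 to 4. Clec4n was at 4.09 to 7.19 in flox, 3.48 in Cre replicate 1 and 0 in the other 3.

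Conditional deletion of Irf8 gave no call among the 6 receptor genes that passed the filter. Of 15512 genes 0% were called by edgeR, with 1407 at an unadjusted p under 0.05 and 164 called by DESeq2. Of the 6 receptor genes, 2 had an unadjusted p under 0.05 (Clec5a, -0.50, SE 0.21, adjusted p = 0.49; Clec4n, -2.76, SE 1.03, adjusted p = 0.413), and DESeq2 called 0. Both estimates pointed down. Clec7a was at 20.6, 5.49 and 19.3 CPM in flox and 14.5, 0.11, 17.96 and 0.82 in Cre, with overlap (-0.87, SE 0.90, adjusted p = 0.895). Cre replicate 3 kept 17.96 CPM of Clec7a with Irf8 at 367 CPM, the lowest Irf8 of the experiment.

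Without the library labelled Cre replicate 1, 6.24% of 15264 genes were called, 2.5% of all being lower, and 2 of the 9 receptor genes were called, both lower. Clec4n had 0 counts in Cre replicates 2 to 4, which allows up to 0.306 to 0.35 CPM in a library, against 146 counts in flox (7.19, 5.95 and 4.09 CPM). It was at least 53.3-fold lower when Cre is set to 3 counts over the group (edgeR adjusted p = 4.4e-06). Clec5a fell by 0.68 (SE 0.18, adjusted p = 0.0221), from 166 ± 26.7 (SD, n = 3) to 103 ± 16.5 CPM (n = 3). Within this experiment, markers of border macrophages moved with Clec4n: their share was 0.0586% to 0.0688% in flox, 0.0602% in Cre replicate 1 and 0.0370%, 0.0178% and 0.0253% in the other 3, and Mrc1 went from 15.1 to 20.1 CPM in flox to 11.1 in Cre replicate 1 and 2.02, 3.38 and 1.12. Between the 3-month WT groups the order was the other way. The Batf3KO experiment had a share of 0.0671% to 0.0838% and Clec4n at most at 0.26 CPM. The IRF8KO experiment had 0.00807% to 0.0272% and 1.55 to 20.8 CPM. Neutrophil markers were at most at 0.0112% in both groups. A difference in the sorting gate between flox and Cre was not tested.

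Set beside germline loss, Clec4n had estimates of opposite sign, and the difference of the effects was called (-6.67, SE 1.38, adjusted p = 0.00812 in edgeR's test). It was the 1 called of the 8 genes other than Clec7a, against 7.04% of 17361 genes in either direction and 2.68% on the lower side. This call held when each of the 15 libraries was left out (adjusted p at most 0.0309). For Clec5a the difference was -1.78 (SE 0.56, adjusted p = 0.0621) and was not called, but it passed in DESeq2 (-1.82, 0.0303), in 1 model of all 33 libraries (-1.95, 0.0114), with no filter on low counts (-1.75, 0.0324) and without WT replicate 2 of the IRF8KO experiment (-2.21, 0.0155). The difference for Clec7a, as a description, was -3.74 (SE 1.15). Clec4a3 and Clec4a2 were at 100 to 256 and 123 to 167 CPM in Cre, and neither was called in either comparison. The germline and conditional animals also differ in neutrophil share (7.75% to 16.7% in IRF8KO against at most 0.00974% in Cre), and the part of this in the difference was not tested.

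Downstream signalling genes did not follow a single direction. Of 27 adaptors, kinases and transcription factors of these receptors, 6 were called higher and 0 lower in IRF8KO at 3 months (median 0.62, all genes -0.02), beside 4.15% of all genes called higher and 7.39% in either direction. At 9 months 4 were called higher and 10 lower (median -1.05, all genes 0.25), beside 19.6% higher and 28.3% in either direction. Fgr, a Src-family kinase, rose at both ages, from 30.7 ± 22.4 (SD, n = 4) to 153 ± 31.6 CPM at 3 months (2.32, SE 0.57, adjusted p = 0.0302) and from 4.98 ± 0.21 (n = 3) to 155 ± 43.9 at 9 months (4.95, SE 0.54, adjusted p = 4.51e-05). Vav3, an exchange factor, rose at 3 months (2.67 ± 3.74 (n = 4) to 29.7 ± 9.71 CPM, adjusted p = 0.0422). Card9, the adaptor next to Syk, fell at 9 months from 24.9 ± 11.2 to 0.129 ± 0.128 CPM (ratio 167, interval 56.3 to 815, adjusted p = 0.00961), and Nfatc2, a calcium-regulated transcription factor, fell from 46.5 ± 10.7 to 1.56 ± 1.62 (adjusted p = 0.025). The effect on Card9 differed between the ages, which are also separate experiments (adjusted p = 0.000116 in edgeR's test).

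The 3 adaptors of these receptors rose in 5xFAD. Tyrobp, the partner of Clec5a, went from 1457, 1740 and 1230 CPM in WT to 4564, 7108 and 7249 (2.09, SE 0.31, adjusted p = 0.0123 in edgeR's test), and Hcst, a related adaptor, from 11.8, 15.1 and 7.29 to 28.1, 39.9 and 50.7 (1.76, SE 0.40, adjusted p = 0.0454). Fcer1g went from 921, 1070 and 784 CPM to 2477, 3245 and 3199 (1.68, adjusted p = 0.0106). These were the 3 called of 27 signalling genes (median -0.21), beside 1.99% of all genes. Calls in 5xFAD depended on single libraries. Over all genes 290 were called, but 2 to 6 without 5xFAD replicate 2 or 3 or any 1 WT library, and 102 without 5xFAD replicate 1. The adaptors were not examined with libraries left out. In 5xFAD/IRF8KO, Fcer1g was lower than in 5xFAD, at 1615, 1624 and 1499 CPM (-0.91, adjusted p = 0.00758), Tyrobp was lower, at 2245, 2437 and 1825 CPM (-1.54, SE 0.30, adjusted p = 0.00277), and so was Lat2, an adaptor of the same route, at 23.8 ± 14.7 against 147 ± 5.73 CPM (SD, n = 3). There 5 signalling genes were called higher and 3 lower, beside 27.8% of all genes in either direction. Clec5a was called higher and its adaptor lower in the same comparison. In Batf3KO, Fcer1g, the adaptor of Clec4n, rose by 0.40 (SE 0.07, adjusted p = 0.00536) while Lat2 had a change of -1.66 (SE 0.11) with an adjusted p of 1.1e-06, where 3.83% of all genes were called. Differences between effects were called for 15 of 27 signalling genes between the ages (3 positive and 12 negative, at 9 minus 3 months), beside 24% of all genes, and for 5 between conditional and germline loss, beside 7.04%. For the ages, a difference between experiments cannot be told apart from one of age.

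Other C-type lectins outside the 9 were counted as a comparison list of 35 genes. In IRF8KO, 4 were called higher and 1 lower of 19 tested at 3 months, and 9 higher and 2 lower of 21 at 9 months. Of all genes, 7.39% and 28.3% were called in either direction, and 4.15% and 19.6% were called higher. Clec2i, Olr1, Klrb1b, Ly75 and Clec4b2, named below, were at or near 0 in the lower group. They could be called only higher, so the direction of their calls is not a result. Clec2i was at 0 counts in WT at 3 months and at 10.48 ± 6.48 CPM in IRF8KO (SD, n = 4; at least 110-fold), and Olr1, the oxidised lipoprotein receptor LOX-1, rose from 0.182 ± 0.24 to 17.6 ± 15.9 (n = 4, adjusted p = 0.00744). At 9 months Ly75, the endocytic receptor DEC-205, rose from 0.102 ± 0.177 to 54.1 ± 17.5 CPM (n = 3, ratio 251, interval 69.2 to 2071), Klrb1b rose from 0 (at least 41.9-fold), and Mrc2, a collagen receptor, fell from 27.6 ± 13.2 to 0.173 ± 0.15 CPM (n = 3, adjusted p = 0.00341). In 5xFAD/IRF8KO against 5xFAD, 8 were called higher and 5 lower of 21, with Clec4b2 rising (ratio 570, interval 102 to 22520). Of all genes, 27.8% were called there in either direction and 18% higher. In Batf3KO, Cd72, an inhibitory receptor, rose by 0.88 (SE 0.20, adjusted p = 0.0242) and Mrc1 fell, with a change of -1.17 (SE 0.27) and an adjusted p of 0.0302, and these were the 2 called of 5 tested, beside 3.83% of all genes.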

How the data were processed

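Microglia were sorted by flow cytometry and their RNA was amplified as cDNA with a SMART-Seq kit, per the labels' protocols, in 33 libraries of 10 groups taken from the titles. The authors deposited whole-number counts of reads per gene for each library, without normalization. The submitters' processing notes name bcl2fastq, STAR 2.5.2b, Picard 2.17.11, Subread, featureCounts and the build mm10, with no order or role. Of the 3 count columns in each file, the unstranded one entered the tests. The chemistry as described names no molecular identifiers, so intervals cover counting error only. Of 54146 gene identifiers, 54079 matched GENCODE M21 (GRCm38) when the version was ignored. Symbols, coordinates and exon lengths came from there. The labels say that microglia came from each brain, so replicates were taken as separate animals.

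Genes were filtered with filterByExpr, scaled with TMM and tested in edgeR 4.0.16 (R 4.3.3) by quasi-likelihood F tests, with Benjamini-Hochberg adjustment over all genes tested and a threshold of 0.05. The 12 libraries at 9 months shared 1 model, and the other comparisons used their own groups, 11 comparisons in all. Those at 9 months share WT, 5xFAD or IRF8KO libraries, and both IRF8KO differences share the germline libraries, so their results are not independent. Standard errors came from the F statistic. Folds against 0 counts are bounds from 3 counts over the group, and those against 1 to 3 counts carry exact 95% counting intervals. Alternatives were RLE factors, no filter, DESeq2 1.42.0, a replicate block, 1 model of all libraries and leaving out each library. The fits were tested on simulated data with the same spread for all genes and no group at 0. That test does not cover genes near 0 counts in a group or libraries of mixed cells.

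The members, lists and tests were chosen with earlier results of these data known. All 9 members are accounted for in every comparison. Clec7a has no test in the comparisons that chose it or in differences between them. Its tests in 5xFAD/IRF8KO against 5xFAD or IRF8KO, and between the WT groups, reuse libraries of those comparisons and are not independent of the choice. Values of uncalled differences between effects are given only in part. From each of 2 further lists, at most 2 rises and 2 falls per comparison were named, taken by size from called genes whose groups did not overlap and whose higher mean reached 5 CPM. Fcer1g in 5xFAD, Apoe, Mrc1, Ly6c2 and S100a8 fall outside that rule and were picked after their values were seen.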

Additional observations from a re-analysis of the deposited data

Results flagged for a closer look

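In groups of 4 libraries, 1 library stood far from the other 3 for 4 values among 26 such groups and genes. The rate of about 1 in 20 by chance alone does not hold where 3 libraries are at 0, as for both values in the Cre group. The other 2 values come from the same library and are not independent. Clec4a2 reached 388 CPM and Clec4e 79.3 CPM in IRF8KO replicate 2 at 3 months, the library with the highest neutrophil marker share (16.7%). In the Cre group Clec4n was at 0 in 3 libraries and at 3.48 CPM in the one labelled replicate 1. Clec4e was at 0.213 CPM (2 counts) in Cre replicate 2, and at 0 in the others.

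The IRF8KO effect differed between 9 and 3 months by edgeR's test of the difference for Clec12a (6.85 on the log2 scale, adjusted p = 0.000436), Clec4n (adjusted p = 0.009996), Clec4d (0.002209) and Clec4e (0.00692). For the last 3 the WT group at 9 months held 2, 0 and 1 counts, so no size is given. Age and experiment cannot be told apart in these differences. The effect of conditional loss minus that of germline loss was -6.67 for Clec4n (adjusted p = 0.00812).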

How the results depend on the processing

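The highest group was the same for all 9 genes with TMM over all 33 libraries and with no TMM factors. Of 57 recomputed counts outside the leave-one-out settings, 46 stayed within 1.5 times the main count. In IRF8KO against WT at 3 months, 2 of 8 genes were called, against 4 by DESeq2, 5 with no filter on low counts and 1 to 5 without 1 library. In 5xFAD, DESeq2 called 1. In Batf3KO the 1 call became 0 in 1 model of all 33 libraries and 0 to 1 without 1 library. In the conditional experiment no filter gave 1 call (Clec4n), and leaving out libraries gave 0 to 2. For the difference between ages the range was 2 to 4. For conditional minus germline loss it was 1 to 3, with 2 calls in 1 model of 33 libraries, 2 by DESeq2 and 2 with no filter. In no comparison did every pair of same-numbered libraries have a correlation of deviations above 0.1 (range -0.25 to 0.22), so the numbers were not taken to pair the samples; in IRF8KO against WT at 3 months 3 of the 4 pairs did (0.13 to 0.22), and replicate 1 had -0.078. With the replicate block the calls were 5 for IRF8KO at 3 months (with Clec5a, Clec4d and Clec4e at adjusted p = 0.0258, 0.0471 and 0.0401), 0 for Batf3KO and 2 for conditional minus germline loss, and every other count stayed within 1.5 times. Uncalled log2 values that changed sign were, in 5xFAD/IRF8KO against IRF8KO, Clec4a3 (0.0021 in 1 model of 33 libraries, 0.0183 with no filter, and -1.24 to 0.58 without 1 library, with 0.10 and 0.27 among them) and Clec4n (-0.52 to 0.24 without 1 library). Without 1 library the ranges in 5xFAD against WT were -0.13 to 2.49 for Clec12a and -0.11 to 1.25 for Clec4a1. In the conditional experiment they were -0.42 to 0.49 for Clec4a1, with 0.0237 and 0.0058 among them, -0.17 to 0.0297 for Clec4a2 and -0.0777 to 0.37 for Clec4a3. The interaction of 5xFAD and IRF8KO ranged from -1.90 to 0.71 for Clec12a and from -0.23 to 0.39 for Clec5a (-0.0413 in 1 model of 33 libraries). The difference between ages for Clec5a ranged from -0.41 to 0.25 (0.1526 by DESeq2 and 0.1521 with RLE factors). Between the WT groups of 3 months, Clec5a ranged from -0.0969 to 0.55. The cause was not tested. The median of all genes was 0.40 for the difference between ages (0.57 with RLE factors), 0.25 for IRF8KO at 9 months and 0.24 for 5xFAD/IRF8KO against 5xFAD. WT at 9 months replicate 3, with 605376 counts, limits values near 0.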

Other observations

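Batf3, an IRF8 partner, differed within the conditional experiment in a way that did not parallel germline loss. It was at 4.32, 4.57 and 1.93 CPM in flox and 1.32 in the library labelled Cre replicate 1, and at 34.7, 67.6 and 47.5 in Cre replicates 2 to 4. In germline IRF8KO it was at 0 in all 6 libraries of both IRF8KO groups at 9 months, against 17.0 to 28.2 CPM in WT and 5xFAD. Clec4n, at 4.09 to 7.19 CPM in flox, was at 0 in the 3 Cre libraries with high Batf3. In the 3-month WT groups Batf3 was above flox, at 23.5 to 26.9 CPM (Batf3KO experiment) and 16.85 to 64.25 (IRF8KO experiment). Clec4n was at 0 to 0.26 and at 1.55 to 20.8 CPM in these WT groups. Why flox differed from them was not tested.

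Apoe, a gene of lipid transport, was at 17600, 10090 and 17490 CPM in flox, 11770 in Cre replicate 1 and 990, 1342 and 1628 in Cre replicates 2 to 4. It was at 575.5 to 766 CPM in WT of the Batf3KO experiment and at 3263 to 10760 in 3-month WT of the IRF8KO experiment. Cre replicate 3 was at 17.96 CPM of Clec7a, within the flox range, and at 1342 CPM of Apoe, far below it.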
